A study of Mus musculus with 6 samples.

Results

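*Krt6a*, *Krt6b*, *Krt16* and *Krt17* encode the keratins that stratified epithelia switch on after injury, and their transcripts were followed here in mouse corneal epithelium. They are 4 of the 47 keratin genes in a table of 17784 genes. The 4 genes were selected on their measured values in the comparison described here, so their levels and folds are given as a description and carry no test. Bulk RNA-seq was done on corneal epithelial cells of 3 Ptch1Prrx1 samples and 3 control samples. Ptch1Prrx1 stands for *Prrx1-CreERT;Ptch1f/f* mice and the controls are *Ptch1f/f* mice, with the floxed line backcrossed to C57BL/6. All 6 samples have the same label for treatment, 3 doses of tamoxifen over 2 months, and for age, 10 weeks. That age differs from the published age at induction, and whether it marks induction or sampling was not settled. *Prrx1-CreERT* is a knock-in of an inducible recombinase whose activity in the cornea includes keratocytes, the cells of the stroma, and endothelial cells, and it extends to mesenchymal cells elsewhere in the eye, so the deletion was directed at cells beneath the epithelium and not at the cells sequenced. *Ptch1* encodes the receptor that holds Hedgehog signaling off. The epithelium was lifted from the stroma with EDTA. Mice of both sexes were used in the study.

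Keratins build the intermediate filaments of epithelial cells, and each filament needs a type II keratin paired with a type I keratin. *Krt6a* and *Krt6b* encode type II keratins, and *Krt16* and *Krt17* encode type I keratins that pair with them. In skin these genes are known for their induction at wound edges and in hyperproliferative disease, and they are constitutive in parts of the hair follicle, nail and oral lining. Differentiated mouse corneal epithelium is known for filaments of the type I keratin K12 with the type II keratin K5, whereas K5 with the type I keratin K14 marks basal cells.

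Total expected counts were 20550100, 20415942 and 20464519 for control replicates 1, 2 and 3. Those for the Ptch1Prrx1 replicates were 20625813, 20352869 and 20296741, so depth was nearly equal. Expected counts are estimated numbers of reads per gene, and 3 of them corresponded to 0.142 to 0.152 CPM on the scaled library sizes, a floor that covers counting error only. TPM, a transcript's share of all transcripts in its library, is corrected for transcript length and was used wherever levels of different genes are compared. Each group had 3 biological replicates, and pairs within a group differed by 10.6 to 40.0 chi-square units per degree of freedom, more than sampling noise. Ptch1Prrx1 replicate 1 stood apart from the rest. On the first principal component, which held 58.1% of the variance, the controls lay at -29.0, -33.7 and -26.5, Ptch1Prrx1 replicates 2 and 3 at 18.3 and 19.1, and Ptch1Prrx1 replicate 1 at 51.7. The Y-linked gene *Ddx3y* was detected in every sample, at 641, 579 and 609.6 normalized counts in the controls and at 1201, 747 and 693 in Ptch1Prrx1 replicates 1, 2 and 3 (edgeR adjusted p = 0.111). *Eif2s3y*, also Y-linked, was highest in the same replicate, with 1510.3 normalized counts, whereas *Uty* overlapped between the groups. The sex of the mice behind each sample is not in the labels, and its part in the keratin values was not tested. Values for the 4 keratins are given with and without Ptch1Prrx1 replicate 1.

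Markers of the labelled tissue were abundant. All 11 corneal epithelial markers were in the table, and their sum was 112416, 115063 and 106682 TPM in the controls against 90148, 114467 and 102114 TPM in the Ptch1Prrx1 samples. *Krt12*, the most abundant of them, reached 37107 TPM or more in every sample. *Ptch1* (gene 19206), the targeted gene, had expected counts of 520.0, 670.0 and 703 in the controls and of 377, 434 and 473 in the Ptch1Prrx1 samples. The fitted log2 fold change was -0.51 (SE 0.13, edgeR adjusted p = 0.0401), short of the fold required for a call. The epithelium is not the layer in which the deletion was directed, so this value does not check the labels. Stromal markers (11 of 12 in the table, led by the collagen gene *Col1a2*) summed to 3.75 to 8.59 TPM in 5 samples and to 55.4 TPM in control replicate 3.

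How the reads were divided between these genes bears on every level reported, because the paralogs are close in sequence. *Krt6a* (chr15:101689910-101694307, 9 exons) and *Krt6b* (chr15:101676023-101680287, 9 exons) lie close together on the minus strand, in coordinates of GRCm38 from the GENCODE M21 annotation. The reads themselves had been aligned to mm9. The coding sequences of both genes were 97.8% identical, with 37 differences over 1659 aligned bases. The following 60 bases of coding exon 4 are the stretch where they differ most, and the 10 capitals mark the differing bases. *Krt6a* is read at chr15:101692484-101692543 and *Krt6b* at chr15:101678303-101678362, both on the minus strand.

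Krt6a: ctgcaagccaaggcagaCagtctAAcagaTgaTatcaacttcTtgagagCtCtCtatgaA

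Krt6b: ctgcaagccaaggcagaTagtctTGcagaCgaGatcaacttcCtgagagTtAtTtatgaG

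In contrast, a read that falls inside the 150 bases below cannot be assigned to either gene from its sequence. They lie in exon 1 of both genes, at chr15:101694066-101694215 in *Krt6a* and at chr15:101680041-101680190 in *Krt6b*, on the minus strand. They are part of an identical run of 280 bases.

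Krt6a and Krt6b: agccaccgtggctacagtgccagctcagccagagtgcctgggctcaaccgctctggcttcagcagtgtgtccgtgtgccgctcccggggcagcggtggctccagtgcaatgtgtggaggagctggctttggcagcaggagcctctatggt

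Of all windows of 50 bases along the *Krt6a* transcript, 43.6% occurred unchanged in *Krt6b*, and 29.5% of windows of 100 bases did. From the side of *Krt6b* the shares were 44.5% and 30.1%. Counting any other annotated gene, such as *Krt5*, *Gm5478* or *Gm5414*, 62.0% and 47.5% of the *Krt6a* windows and 50.1% and 30.6% of the *Krt6b* windows were shared. The read length is not given in the sources used here, so both window lengths are shown. The predicted gene *Gm49428* held 15.5% of the 50-base windows of *Krt6a*, with windows matched in either orientation. Strand-specific counting is not stated, so whether reads from those stretches could be told apart is unknown.

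The type I pair was easier to separate. *Krt16* (chr11:100246091-100248902, 8 exons) and *Krt17* (chr11:100256217-100261029, 8 exons), also on the minus strand in GRCm38, had coding sequences that were 80.5% identical. They differed most in these 60 bases of exon 5, where 19 capitals mark the differing bases, at chr11:100247159-100247218 in *Krt16* and at chr11:100257800-100257859 in *Krt17*.

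Krt16: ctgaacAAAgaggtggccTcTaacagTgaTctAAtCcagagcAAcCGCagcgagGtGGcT

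Krt17: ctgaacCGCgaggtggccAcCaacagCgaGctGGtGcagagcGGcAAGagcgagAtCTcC

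Only 0.396% of the 50-base windows of *Krt16* occurred in *Krt17*. *Krt16* shared more with *Krt14*, the basal cell keratin, at 12.4% of 50-base windows and 3.14% of 100-base windows. The longest run common to *Krt16* and *Krt14* was 134 bases of exon 1, at chr11:100248476-100248609 in *Krt16* and at chr11:100207017-100207150 in *Krt14*, on the minus strand.

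Krt16 and Krt14: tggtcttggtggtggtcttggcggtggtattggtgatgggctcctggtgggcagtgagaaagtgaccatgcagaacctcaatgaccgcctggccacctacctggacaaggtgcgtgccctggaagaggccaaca

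The predicted gene *Gm11597*, for which no value was used here, held 25.2% of the 50-base windows of *Krt16*. Of 7 predicted genes that share windows with the stress keratins, only *Gm5414* was among the genes with values. Whether reads were divided with the others is not known. Counting any other gene, *Krt16* shared 37.6% of its 50-base and 24.3% of its 100-base windows. *Krt17* was the least ambiguous of the 4, with 3.99% of its 50-base windows and 0% of its 100-base windows in any other gene. For all 4 genes the expected counts of all 6 samples were not whole numbers (tolerance 0.005), as happens when the quantifier divides reads among genes. *Krt12* had such a value in 1 of 6 samples, but *Krt5*, *Krt14* and *Krt15* had one in all 6, as the stress keratins did. Among all genes, 39.4% of values above 0 were not whole.

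Of the 12999 genes tested across the transcriptome, 420 were called, or 3.23%, in edgeR's quasi-likelihood test with a Benjamini-Hochberg adjusted p no higher than 0.05 and a 2-fold difference or more. The 304 genes called higher in Ptch1Prrx1 samples were 2.34% and the 116 called lower were 0.892%. All 3 Ptch1Prrx1 values lay above all 3 control values for 2557 genes, or 19.7%. The median log2 fold change of all tested genes was -0.01. All 4 stress keratins passed the count filter and none had overlapping groups, which the choice of these genes on this comparison already favours, so nothing is read from that count.

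*Krt6a* (gene 16687), the first of the type II keratins, was measured at 4134, 4308 and 4433 TPM in control replicates 1, 2 and 3. In Ptch1Prrx1 replicates 1, 2 and 3 it stood at 8803, 7458 and 6341 TPM. The controls were close together, the Ptch1Prrx1 samples were spread more widely, and the groups did not overlap. The means were 4292 ± 149.8 and 7534 ± 1233 TPM (SD, n = 3 each), a ratio of 1.76, or 1.61 without Ptch1Prrx1 replicate 1. On the count scale the fitted log2 fold change was 0.86.

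*Krt6b* (gene 16688), its close paralog, had 4698, 4879 and 5045 TPM in the 3 controls. Its level was 7635, 6289 and 5782 TPM in Ptch1Prrx1 replicates 1, 2 and 3. Again every Ptch1Prrx1 sample exceeded every control, with the lowest 1.15 times the highest control. The means were 4874 ± 174 and 6568 ± 957 TPM (SD, n = 3 each), a ratio of 1.35, or 1.24 without Ptch1Prrx1 replicate 1, and the fitted log2 fold change was 0.48. Both type II genes were thus abundant in control epithelium already, where *Krt6b* ranked 14 or 15 and *Krt6a* from 16 to 20 among all genes by TPM. In Ptch1Prrx1 samples the ranks were 8, 14 and 14 for *Krt6b* and 6, 7 and 11 for *Krt6a*.

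*Krt16* (gene 16666), a type I partner of the K6 proteins, was far less abundant in controls, at 20.1, 5.63 and 16.1 TPM. The same gene reached 2769.6, 980.4 and 718 TPM in Ptch1Prrx1 replicates 1, 2 and 3. Its expected counts were 299, 81.3 and 232 in controls against 41368, 14055 and 10141, so no value lay near the floor of 3 counts. The lowest Ptch1Prrx1 sample was 35.7 times the highest control. Mean levels were 13.9 ± 7.47 and 1489 ± 1116 TPM (SD, n = 3 each), a ratio of 106.8, or 60.9 without Ptch1Prrx1 replicate 1. Its fitted log2 fold change was 6.80. Among all genes *Krt16* moved from rank 6084, 9704 and 7058 in the controls to rank 34, 134 and 180 in Ptch1Prrx1 replicates 1, 2 and 3.

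*Krt17* (gene 16667), the other type I gene, was at 15.7, 24.9 and 23.6 TPM in the controls. Ptch1Prrx1 replicates 1, 2 and 3 had 287, 59.5 and 60.7 TPM. Replicates 2 and 3 were almost level, whereas replicate 1 was 4.77 times their mean, and the groups did not overlap. The means were 21.4 ± 4.99 and 136 ± 131 TPM (SD, n = 3 each). The ratio of 6.35 depended on that library and was 2.81 without it. Likewise the fitted log2 fold change was 2.80 with it and 1.55 without it.

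**Figure D1:**
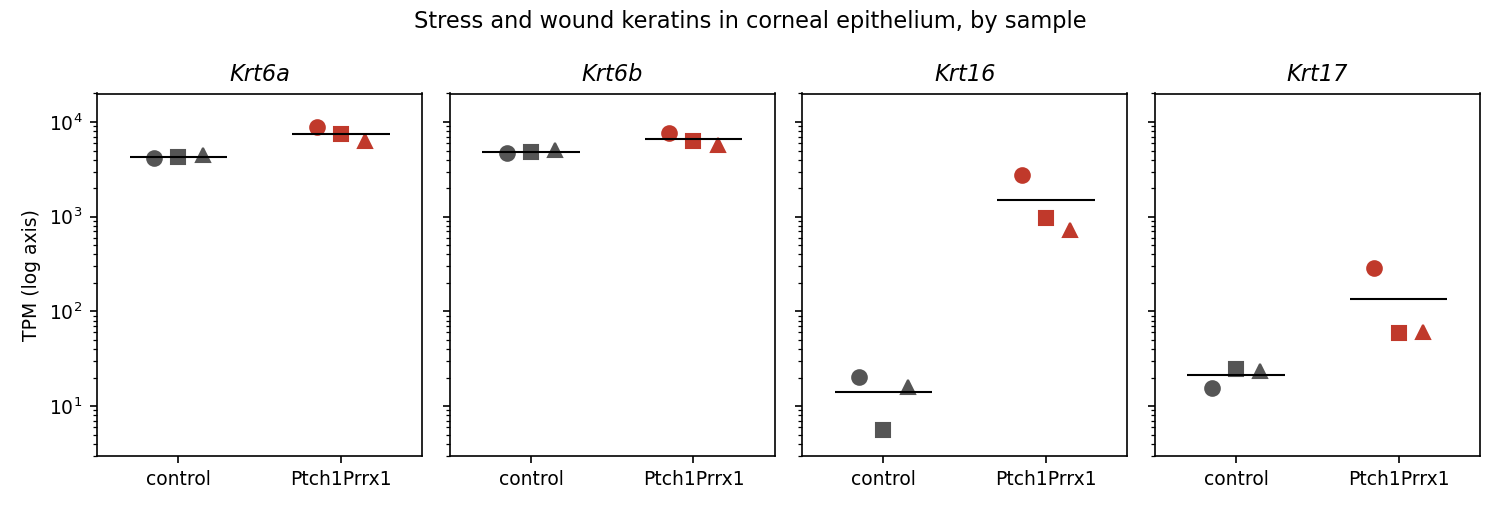
TPM of *Krt6a*, *Krt6b*, *Krt16* and *Krt17* on a shared log axis in control (grey) and Ptch1Prrx1 (red) samples, where circles, squares and triangles are replicates 1, 2 and 3 and lines are group means. *Krt6a* and *Krt6b* start at 4134 TPM or more in controls, *Krt16* and *Krt17* at 24.9 or less, and Ptch1Prrx1 replicate 1 is the highest sample for all 4 genes.

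Ptch1Prrx1 replicate 1 had the highest value of all samples for each of the 4 genes, by differing amounts. Its level relative to the mean of replicates 2 and 3 was 1.28 for *Krt6a*, 1.26 for *Krt6b*, 3.26 for *Krt16* and 4.77 for *Krt17*. Within the controls the coefficient of variation was 3.49% for *Krt6a* and 3.56% for *Krt6b*, against 53.6% for *Krt16* and 23.3% for *Krt17*, the less abundant pair. What set that spread was not tested.

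The order of the 4 levels changed between the groups. In each control it was *Krt6b* above *Krt6a*, with *Krt16* and *Krt17* far below, and *Krt17* exceeded *Krt16* in control replicates 2 and 3 but not in replicate 1. In each Ptch1Prrx1 sample it was *Krt6a*, *Krt6b*, *Krt16*, *Krt17* from highest to lowest. *Krt6a* and *Krt6b* were neighbours in both orders. Their means in Ptch1Prrx1 samples, 7534 and 6568 TPM, differed by less than the SD of *Krt6a*, and the means of *Krt16* and *Krt17* in controls by no more than the SD of *Krt16*. Taken within a sample the ratio was tighter. *Krt6a* over *Krt6b* was 0.880, 0.883 and 0.879 in control replicates 1, 2 and 3, and 1.15, 1.19 and 1.10 in Ptch1Prrx1 replicates 1, 2 and 3. All controls were thus below 1 and all Ptch1Prrx1 samples above it, with means of 0.881 ± 0.00212 and 1.15 ± 0.0451 (SD, n = 3 each). This ratio rests on the division of reads in sequences that differ at few positions, and how far that division shaped it was not tested. *Krt16* over *Krt17* was 1.28, 0.227 and 0.681 in the controls. In Ptch1Prrx1 replicates 1, 2 and 3 it was 9.65, 16.5 and 11.8, so no sample of either group fell in the range of the other.

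**Figure D2:**
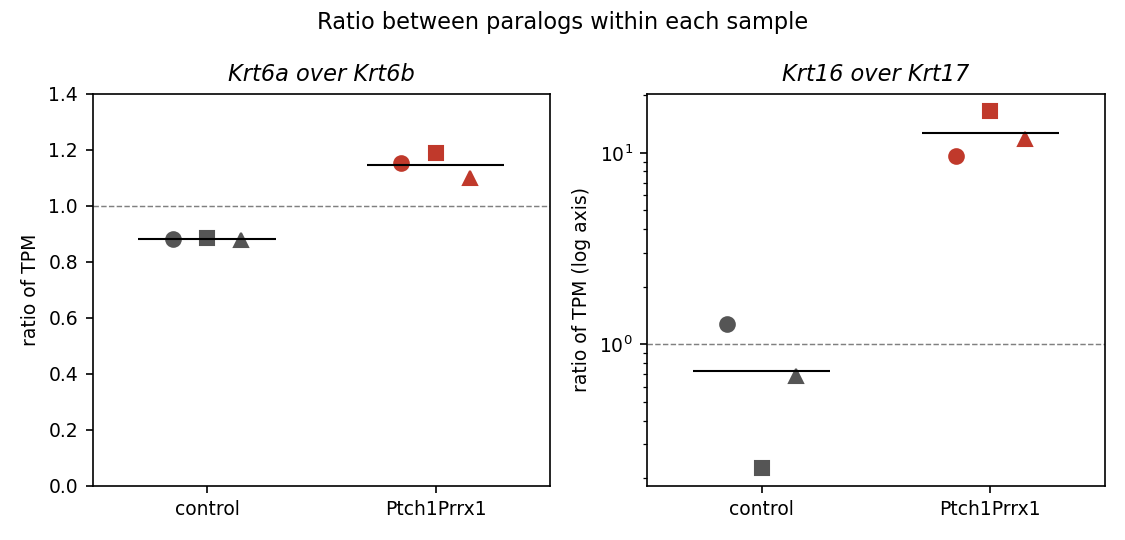
Ratio of TPM between paralogs within each sample, *Krt6a* over *Krt6b* on a linear axis and *Krt16* over *Krt17* on a log axis, where the dashed line is a ratio of 1, solid lines are group means and symbols are replicates. *Krt6a* over *Krt6b* passes from 0.881 on average in controls to 1.15 in Ptch1Prrx1 samples, on opposite sides of 1.

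Sums over paralogs do not depend on how reads were divided within the pair. *Krt6a* plus *Krt6b* came to 8832, 9186 and 9477 TPM in the controls and to 16437, 13747 and 12123 TPM in Ptch1Prrx1 replicates 1, 2 and 3, a ratio of means of 1.54, or 1.41 without Ptch1Prrx1 replicate 1. *Krt16* plus *Krt17* came to 35.8, 30.5 and 39.7 TPM in the controls and to 3057, 1039.9 and 779 TPM, a ratio of 46.0, or 25.7 without that replicate. With *Krt14* added, because it shares sequence with *Krt16*, the sums were 569.6, 566 and 683 TPM against 8855, 4294 and 3199.6 TPM, a ratio of 8.99, or 6.18 without it. The groups were apart for each of these sums. Type II stress keratin transcripts outnumbered their type I partners in every sample. The excess was 247, 301 and 239 times in the controls and 5.38, 13.2 and 15.6 times in Ptch1Prrx1 replicates 1, 2 and 3, since the type I pair differed between the groups by much more than the type II pair.

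Across the whole keratin family, the 4 genes supplied 10.3%, 10.6% and 11.6% of all keratin TPM in the controls and 20.6%, 15.1% and 14.9% in Ptch1Prrx1 replicates 1, 2 and 3. The mean share was 10.8 ± 0.654% against 16.8 ± 3.23% (SD, n = 3 each), a difference of 6.03 percentage points, and the groups did not overlap. Without Ptch1Prrx1 replicate 1 the Ptch1Prrx1 mean was 15.0%. Of all transcripts in a sample they were 0.887%, 0.922% and 0.952% in the controls and 1.95%, 1.48% and 1.29% in Ptch1Prrx1 samples. Keratin transcripts as a whole were 8.51 ± 0.245% of TPM in controls and 9.31 ± 0.588% in Ptch1Prrx1 samples, with overlapping groups.

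*Krt6a* and *Krt6b* together made up 25.2%, 26.1% and 27.9% of type II keratin TPM in the controls and 39.5%, 33.4% and 32.2% in Ptch1Prrx1 replicates 1, 2 and 3. *Krt5*, the main type II keratin, held 72.1%, 71.1% and 69.0% and then 56.1%, 63.9% and 64.1%, although its own level did not separate the groups. Type II keratins in total were higher in every Ptch1Prrx1 sample, at 41634, 41171 and 37635 TPM against 34978, 35203 and 33958 TPM in the controls. On the type I side, *Krt16* and *Krt17* together were 0.0701%, 0.0589% and 0.0822% in the controls and 5.76%, 1.83% and 1.59% in Ptch1Prrx1 samples. *Krt12* held 94.7%, 93.5% and 91.0% of type I keratin TPM in the controls and 69.9%, 87.0% and 84.0% in Ptch1Prrx1 replicates 1, 2 and 3. The type I total overlapped between the groups. In bulk samples, fewer cells of a type and less RNA per cell cannot be told apart, so these shares do not say whether a few cells or all cells carried the stress keratins.

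**Figure D3:**
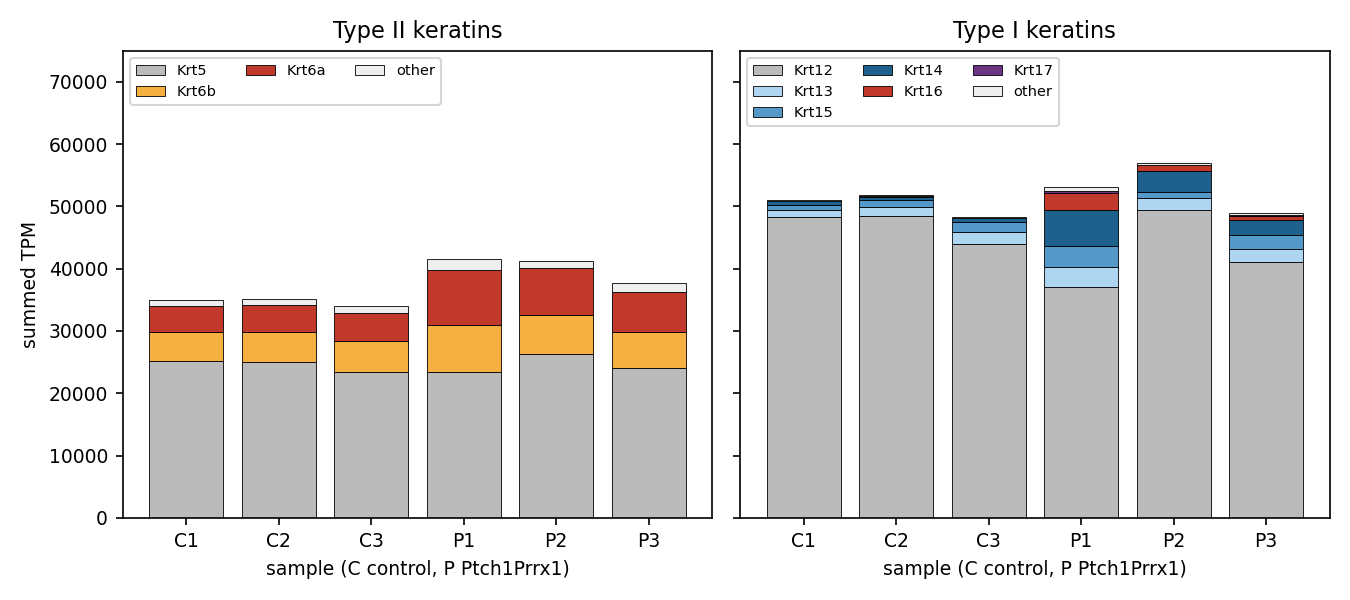
Summed TPM of type II keratins (left) and type I keratins (right) in each sample, stacked by gene, with C for control, P for Ptch1Prrx1 and the replicate number. *Krt6a* and *Krt6b* take at most 27.9% of the type II bar in controls and 32.2% or more in Ptch1Prrx1 samples, and *Krt16* appears beside a larger *Krt14* segment on the type I side.

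Of the other 43 keratin genes, 22 passed the count filter, and 2 of them rose (9.09%, against 2.34% of all tested genes) and 0 fell. At an unadjusted p below 0.05, 9 of the 22 were above 0 and 3 below, and DESeq2 called 3 higher and 0 lower. The share of all tested genes at that unadjusted p is not given, so nothing is read from the 9 and 3. The 22 had a median log2 fold change of 0.42, beside -0.01 for all tested genes, and 17 were above 0. The 2 called were *Krt14*, the type I keratin of basal cells, and *Krt90*, a type II keratin. *Krt14* (gene 16664) had 8184, 7760.1 and 9282 normalized counts in the controls and 93094, 48669.9 and 35435 in the Ptch1Prrx1 samples. The log2 fold change of *Krt14* was 2.81 (SE 0.34, edgeR adjusted p = 0.00769). *Krt90* (gene 239673) had 133, 122 and 185 normalized counts in the controls and 810.5, 489.5 and 413 in Ptch1Prrx1 samples, with a log2 fold change of 1.96 (SE 0.28, edgeR adjusted p = 0.0107). Both showed Ptch1Prrx1 replicate 1 as the highest sample, as the 4 stress keratins did. Without control replicate 2 neither was called and the count was 0, and without Ptch1Prrx1 replicate 2 it was 6, with 5 higher and 1 lower.

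The keratins that define corneal epithelium did not pass the test. *Krt12* had a log2 fold change of -0.10 (SE 0.13, edgeR adjusted p = 0.645) and *Krt5* one of 0.04 (SE 0.11, adjusted p = 0.816). *Krt15*, a basal and limbal keratin, and *Krt19* and *Krt4*, known from limbus and conjunctiva, had log2 fold changes of 0.99, 1.46 and 1.80 (edgeR adjusted p = 0.126, 0.0793 and 0.0685). For *Krt4* the values were 105, 152 and 223 TPM in the controls and 898, 169.7 and 528 TPM in Ptch1Prrx1 replicates 1, 2 and 3. Replicate 2 thus lay within the control range for *Krt4*, and so it did for *Krt15* and *Krt19*. *Krt13*, *Krt7*, *Krt23* and *Krt80*, the remaining keratins with at least 10 TPM and values above 0, had log2 fold changes of 0.68, 0.71, 1.03 and 0.21 (edgeR adjusted p = 0.107, 0.217, 0.111 and 0.102). *Krt78* and *Krt8* had log2 fold changes of -0.60 and -0.91 with edgeR adjusted p = 0.0319 and 0.0139, under the fold required for a call.

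**Figure D4:**
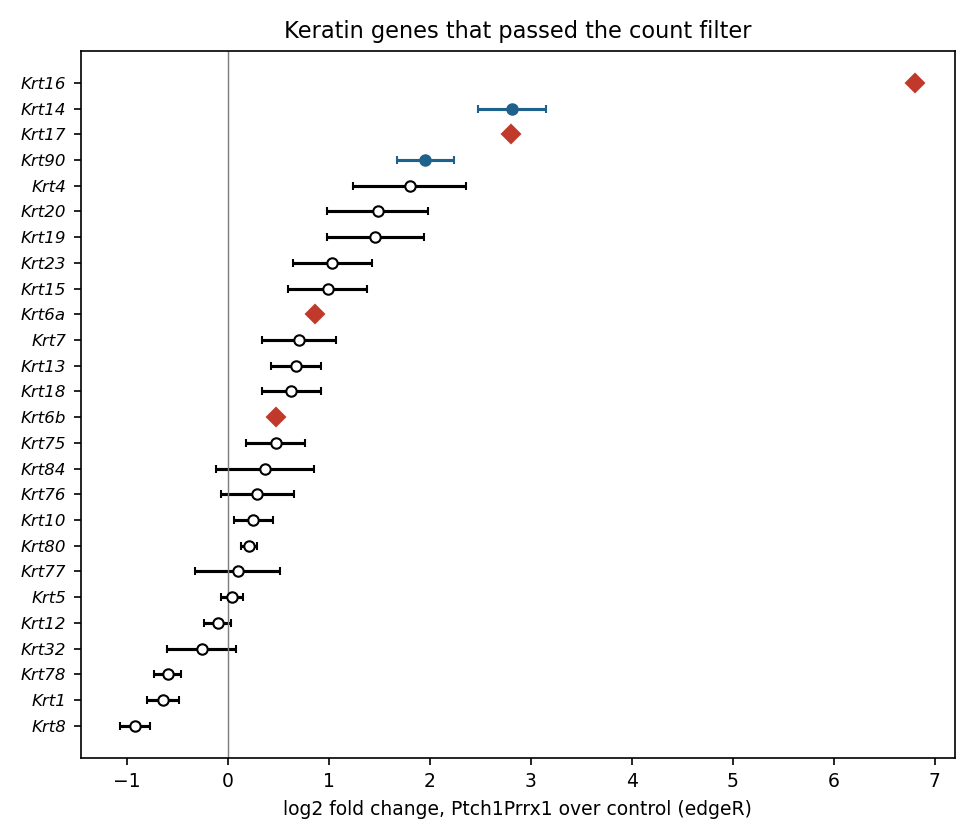
Fitted log2 fold change, Ptch1Prrx1 over control, of the keratin genes that passed the count filter, with bars of 1 standard error for genes that were tested as other keratins. Red diamonds are the 4 stress keratins, given without a test, filled blue points are *Krt14* and *Krt90*, which were called, and open points were not called.

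Which other cell types might carry these keratins was looked at through marker lists. Stress keratins are constitutive in hair follicle and gland ducts, and the 14 of 16 follicle and gland markers in the table summed to 32.9, 32.1 and 38.5 TPM in the controls and to 50.6, 43.3 and 33.9 TPM in Ptch1Prrx1 replicates 1, 2 and 3. *Scd1*, a lipid enzyme that many epithelia express, made up most of that sum, at 28.1, 27.2 and 32.8 TPM in the controls and 42.02, 36.8 and 27.9 TPM in Ptch1Prrx1 samples. Conjunctival and goblet cell markers (10 of 12 in the table) summed to 13114, 12850 and 12451 TPM in the controls and to 13375, 11349 and 11832 TPM in Ptch1Prrx1 samples. Their most abundant gene was *Gsta4*, with 11770, 11075 and 10273 TPM in the controls. *Gsta4* is a glutathione transferase gene that corneal epithelium expresses too. Without it the other 9 genes summed to 1344, 1775 and 2178 TPM in the controls and to 4184, 2059 and 2619 TPM in Ptch1Prrx1 replicates 1, 2 and 3, of which *Krt13* and *Krt4*, described above, were the largest part. Ptch1Prrx1 replicate 1 was the highest sample of that sum too. The list's 7 genes that are not keratins, *Gsta4* included, summed to 11792, 11112 and 10309 TPM in the controls. In Ptch1Prrx1 replicates 1, 2 and 3 they summed to 9217, 9309 and 9245 TPM. Those of them that were tested, *Agr2*, *Sytl2*, *Gsta4* and *Clca3b*, had log2 fold changes of -0.32, -0.63, -0.22 and 0.53. Immune cell markers (12 of 14 in the table) summed to 73.7, 68.3 and 80.6 TPM in the controls and to 104, 65.1 and 77.8 TPM in Ptch1Prrx1 samples, led by *Cd68*, a lysosomal glycoprotein of macrophages. The follicle-specific keratin genes *Krt25*, *Krt27*, *Krt28*, *Krt71*, *Krt72* and *Krt73* averaged at most 0.207 TPM in either group. In edgeR's quasi-likelihood test 0 of 3 follicle and gland markers, 0 of 7 conjunctival markers and 0 of 6 immune markers were called, beside 3.23% of all tested genes, so with so few genes nothing is read from these counts. At an unadjusted p below 0.05 there were 1, 2 and 1 of them above 0 and 0 below, and DESeq2 called 0, 1 and 1. The 3.23% does not apply at an unadjusted p, and the share that does is not given, so these counts are not read either. With keratins included, Ptch1Prrx1 replicate 1 had the highest sum for each of these 3 lists. The part of conjunctival and immune cells in the keratin values was not tested.

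Transcription factors that act on stress keratin genes were covered by lists. AP-1 and C/EBP factors bind promoters of epidermal keratin genes, and 3 of 10 rose and 0 fell, beside 2.34% and 0.892% of all tested genes, with a median log2 fold change of 0.69. *Jun*, an AP-1 subunit, had 1741, 1827 and 1767 normalized counts in the controls and 13440, 9411 and 6608 in the Ptch1Prrx1 samples. The log2 fold change of *Jun* was 2.47 (SE 0.24, edgeR adjusted p = 0.00436). The AP-1 subunits *Fosb* and *Fos* rose by 2.57 and 1.26 on the log2 scale (adjusted p = 0.0105 and 0.0180). Unlike the keratins, neither was highest in Ptch1Prrx1 replicate 1, where *Fos* had 4099.9 normalized counts against 8189 and 5881 in replicates 2 and 3. Of the other transcription factors of keratinocyte keratin genes, 2 of 17 rose (2.34% of all tested genes) and 0 fell. They were *Egr1*, an immediate early factor, at 1.52 (adjusted p = 0.0186) and *Klf6*, a zinc finger factor, at 1.12 (adjusted p = 0.0252, both from edgeR). *Trp63*, the master factor of stratified epithelia, was at -0.03 (adjusted p = 0.838), and *Nr3c1*, the glucocorticoid receptor, which represses stress keratin genes, was at -0.06 (adjusted p = 0.667, both from edgeR). *Gli1*, a Hedgehog target, had at most 3 counts in every sample and was not tested.

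Signals that induce stress keratins in keratinocytes were likewise listed. In the NF-kB and STAT list 1 of 11 rose (2.34% of all tested genes) and 0 fell. That gene was *Socs3*, an inhibitor induced by STAT3, with 31.8, 22.6 and 12.6 normalized counts in the controls and 571, 329 and 465 in Ptch1Prrx1 replicates 1, 2 and 3 (log2 fold change 4.34, SE 0.32, edgeR adjusted p = 0.00263). *Stat3* itself was at 0.37 (SE 0.07, edgeR adjusted p = 0.0185), short of the fold for a call. Among cytokine inputs and their receptors 3 of 18 rose (2.34% of all tested genes) and 0 fell. *Il1a*, an alarm cytokine stored in keratinocytes, rose from 558, 555 and 541 normalized counts in the controls to 1663, 933 and 1032 in Ptch1Prrx1 replicates 1, 2 and 3 (log2 fold change 1.13, edgeR adjusted p = 0.0182). The interferon gamma receptor gene *Ifngr1* and the epithelial cytokine gene *Tslp* rose by 1.09 and 1.26 (adjusted p = 0.0103 and 0.0192). In the EGF receptor axis 1 of 14 rose (2.34% of all tested genes) and 0 fell, namely *Areg*, the EGF receptor ligand amphiregulin, at 1.85 (SE 0.39, edgeR adjusted p = 0.0256). *Egfr*, the receptor, was at -0.00 (SE 0.07, edgeR adjusted p = 0.994). In the NRF2 axis 0 of 8 genes were called by edgeR, beside 3.23% of all tested genes, and 1 by DESeq2. With so few genes nothing is read from these counts. At an unadjusted p below 0.05, 3 were above 0 and 2 below. *Nfe2l2*, which encodes NRF2, an oxidative stress factor that acts on *Krt16* and *Krt17* in skin, was at -0.09 (edgeR adjusted p = 0.471). The list of 25 keratin partners and linkers holds desmosome and hemidesmosome genes and others, such as *Src*, *Hnrnpk* and *Myh9*. Of these 25, 0 were called by edgeR and 0 by DESeq2. With 3.23% of all tested genes called by edgeR, nothing is read from that 0. Their median log2 fold change was 0.15, with a range of -0.55 to 0.81. At an unadjusted p below 0.05, 11 of them were above 0 and 3 below. No share of all tested genes at that p is given, so the unadjusted counts of this list and the NRF2 list are not interpreted.

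The count of calls over these regulator and partner lists was 10 of 103, all higher, beside 2.34% of all tested genes. It was 3 without control replicate 2, when the count over all genes fell from 420 to 59, and 6 without control replicate 3, when that count was 254. *Jun* and *Socs3* were called under every alternative, whereas *Il1a* and *Klf6* lost the call without each control replicate in turn and without Ptch1Prrx1 replicate 1. *Fos* lost it in 5 of 13 alternatives, namely without each control replicate, without Ptch1Prrx1 replicate 2 and with limma on log2(TPM + 0.1). *Tslp*, *Areg* and *Ifngr1* each lost it without control replicate 2 and in 1 or 2 other alternatives, *Fosb* without control replicate 2 and *Egr1* without control replicate 1. No listed regulator called by edgeR turned direction in an alternative.

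In a list of genes known from the margin of epithelial wounds, 11 of 30 rose (36.7%, against 2.34% of all tested genes) and 0 fell, with a median log2 fold change of 0.97. *Plat*, tissue plasminogen activator, had 478, 409.98 and 443 normalized counts in the controls and 1008, 898 and 904 in Ptch1Prrx1 replicates 1, 2 and 3 (log2 fold change 1.08, SE 0.09, edgeR adjusted p = 0.00319). The metalloproteinase genes *Mmp10* and *Mmp13* rose by 3.43 and 4.59 from low control levels (edgeR adjusted p = 0.0107 and 0.0110). *Ptgs2*, the inducible cyclooxygenase, had at most 3 normalized counts in each control and 3118, 283 and 545 in Ptch1Prrx1 replicates 1, 2 and 3 (edgeR adjusted p = 0.0133). As with *Krt17*, Ptch1Prrx1 replicate 1 stood far above replicates 2 and 3. Also called were *Serpinb2*, *Msn*, *Plau* and *Itga5*, picked out by name after their values were seen, at log2 fold changes of 1.69 to 3.94. These calls were less stable, and held in 10, 8 and 6 of 13 alternatives for *Serpinb2*, *Msn* and *Plau*, and in 5 of 12 for *Itga5*. *Plat* kept its call in all 13, and *Mmp10*, *Mmp13* and *Ptgs2* each in 11 of 12.

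Of the epidermal alarmins and antimicrobials, genes often induced beside stress keratins in inflamed skin, 14 of 20 were in the table and 5 passed the filter. *S100a7a*, an antimicrobial S100 protein gene, was the gene that rose, from 210, 98.3 and 90.3 normalized counts in the controls to 1034, 736 and 467 in Ptch1Prrx1 replicates 1, 2 and 3 (log2 fold change 2.49, SE 0.39, edgeR adjusted p = 0.0125). *S100a8* and *S100a9*, the subunits of calprotectin, which both inflamed epithelium and neutrophils make, did not pass the filter and are named after their values were seen. *S100a9* had 2.98, 3.93 and 3.88 normalized counts in the controls and 1798, 7.18 and 30.9 in Ptch1Prrx1 replicates 1, 2 and 3. *S100a8* was at 0 in all 3 controls and had 275, 1.03 and 2.99 normalized counts in the Ptch1Prrx1 samples, so both were carried almost wholly by Ptch1Prrx1 replicate 1. K6, K16 and K17 also mark hyperproliferative epithelium. By edgeR's quasi-likelihood test and by DESeq2 0 of 15 proliferation genes were called, because none reached a fold of 2. Among all tested genes edgeR called 3.23%, so a count of 0 in so short a list is not read further. At an unadjusted p below 0.05, 13 were above 0 and 1 below, but the share of all tested genes at that p is not given and nothing is read from this count. The list's median was 0.58 on the log2 scale, 14 of 15 were above 0, and all 3 Ptch1Prrx1 samples exceeded all controls for 13 of 15 (beside 19.7% of all tested genes). *Mki67* and *Cdk1*, made in cycling cells, were at 0.73 and 0.81 (adjusted p = 0.0241 and 0.0119), whereas *Ccnd1*, cyclin D1, was at -0.56 (adjusted p = 0.0267, all from edgeR). Over the wound edge, alarmin and proliferation lists together 12 of 50 were called, all higher, beside 2.34% of all tested genes. The count was 2 without control replicate 2, when that over all genes fell to 59.

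**Figure D5:**
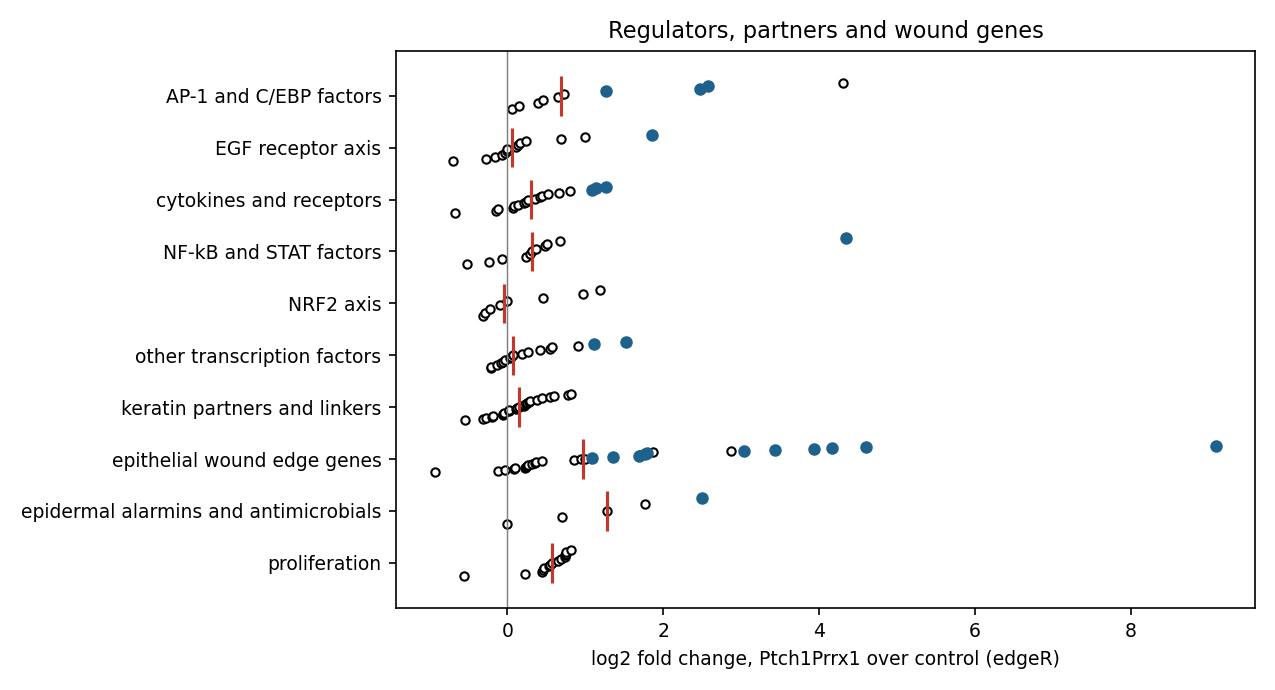
Fitted log2 fold change, Ptch1Prrx1 over control, of each tested gene in the lists of regulators, partners, wound edge genes, alarmins and proliferation genes, with called genes as filled blue points, others open, and list medians as red bars. Called genes lie above 0 in every list that has one, the wound edge list has 11, and the NRF2, partner and proliferation lists have 0.

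Genes whose profile over the 6 samples was most like that of each keratin were found by Pearson's r of log2(CPM + 1) among 10323 genes averaging 100 normalized counts or more. All points share the same libraries and a difference between 2 groups, so high values are common and no p is given. Nearest to *Krt6a* were *Psmd2*, *Lmna* and *Prss27* (r = 0.998, 0.997 and 0.997), and nearest to *Krt6b* were *Atp2b1*, *Slc6a14* and *Patl1* (r = 0.999, 0.997 and 0.997). *Krt16* was followed most closely by *Rab11fip5*, *Tgif2* and *Ncapg2* (r = 0.998, 0.998 and 0.997), and *Krt17* by *Map4k4*, *Btbd11* and *Rbbp6* (r = 0.995, 0.995 and 0.994). No stress keratin was among the 3 nearest genes of another. Between them r ran from 0.881 for *Krt16* with *Krt17* to 0.977 for *Krt6a* with *Krt6b*, and *Krt6b* with *Krt17* stood at 0.973. *Prss27*, an epithelial serine protease gene, shows what a close profile looks like, with 4127, 3908 and 3832 normalized counts in the controls and 9786, 7445 and 6096 in Ptch1Prrx1 replicates 1, 2 and 3.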

How the data were processed

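RNA was sequenced from corneal epithelial cells of 3 control and 3 Ptch1Prrx1 samples, grouped by the sample labels. The labels name an Illumina TruSeq kit, whereas the published methods describe rRNA depletion and sequencing of DNA nanoballs. The authors aligned reads with Bowtie2 2.2.5 and quantified genes with RSEM 1.2.12, and the build mm9 is named in the submitters' processing notes. The deposited expected counts are numbers of reads per gene as RSEM estimated them, unscaled for depth. The authors deposited TPM values, scaled within each sample for length and depth, and FPKM values, which were not used here. The number of other sample columns was 0.

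Expected counts were rounded, although 39.4% of values above 0 were not whole. Of 17784 genes, 12999 passed filterByExpr and were tested with edgeR 4.0.16 in R 4.3.3 (quasi-likelihood test, TMM factors from 0.96 to 1.03, Benjamini-Hochberg adjustment), without covariates. Genes were called at a 2-fold difference or more and an adjusted p no higher than 0.05. Normalized counts are counts on TMM-scaled library sizes. SE was taken as the size of the log2 fold change over the root of F. An exact test of 3 against 3 cannot go below a p of 0.10. Reference sequences came from GENCODE M21 (GRCm38). The tables of promoters held 0 of the 4 stress keratins.

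The stress keratins, the gene lists and the tests were chosen with earlier results of these data known. Genes named were the 4 stress keratins, other keratins called or with a mean of at least 10 TPM in a group, up to 6 called genes of each list by p, 8 fixed genes, and the 3 most like profiles. Y-linked genes, single marker genes, *Serpinb2*, *Msn*, *Plau*, *Itga5*, *S100a8* and *S100a9* were named outside this rule, after their values were seen. A few called genes go unreported. Alternatives tried were DESeq2 1.42.0, limma 3.58.1 on log2(TPM + 1) or log2(TPM + 0.1) for genes with a mean of at least 1 TPM, other size factors and filters, no minimum fold, summed paralogs, a replicate block, and each sample left out in turn. The procedure was tested on simulated data.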

Additional observations from a re-analysis of the deposited data

How the results depend on the processing

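None of the 74 alternative values of the 4 stress keratins and their ratios changed direction, and 70 moved by less than 1 SD between replicates. The genes were chosen on this comparison and the groups did not overlap. Leaving out a sample therefore could not reverse a direction, and nothing is read from these counts. The SD was also wide for *Krt16* and *Krt17*, at 1.04 and 0.998 log2 units. Where samples were left out in turn, the log2 fold change ran from 0.70 to 1.00 for *Krt6a*, 0.32 to 0.59 for *Krt6b*, 5.94 to 7.20 for *Krt16* and 1.55 to 3.17 for *Krt17*. With paralogs summed it was 5.64 for *Krt16* and *Krt17* together. The difference in share was 0.653 percentage points of all TPM in place of 6.03 of keratin TPM. The count of 420 called genes was 203 with limma on log2(TPM + 1), 254 with limma on log2(TPM + 0.1), and 1822 with no minimum fold (989 higher and 833 lower, so 54.3% were higher in place of 72.4%). With samples left out it ran from 59, without control replicate 2, to 430.0. With no minimum fold the calls were 5 for other keratins (2 higher and 3 lower), 32 for regulators and partners (29 and 3), and 26 for wound edge, alarmin and proliferation genes (24 and 2), and the latter were 7 with at least 10 counts in every sample. Left-out samples gave 0 to 6, 3 to 14 and 2 to 13. With control replicate 1, 2 or 3 left out, the counts over all genes were 250, 59 and 254. With Ptch1Prrx1 replicate 1, 2 or 3 left out, from as many samples, they were 273, 395 and 430. What caused these differences was not tested. A replicate block gave 390.0 calls. Same-numbered samples did not deviate together (r = 0.105, -0.0137 and 0.0189), and control replicate 2 correlated best with Ptch1Prrx1 replicate 3 (r = 0.181), so the numbers were not taken as pairs. Of the 24 called genes of the lists and other keratins, 4 (among them *Jun*, *Plat* and *Socs3*) kept the call in all alternatives and 0 changed sign. Depth leaves little counting error in *Krt6a* and *Krt6b*, with at least 89585 counts in every sample, and the effect of read sharing on their ratio was not tested.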
